A study of Mus musculus with 12 samples.

Results

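The genes described here encode glucose transport, the steps of glycolysis and lactate export in C2C12 cells, a single clonal line of mouse myoblasts. They are 32 of the 26271 loci in the authors' deposited table, chosen by gene symbol. Where a symbol stood in 2 loci, as Gpi1 and Pkm did, the locus with the higher summed value was read. Cells were kept for 24 h in a high glucose medium (25 mM), in a low glucose medium (5 mM) or in a medium with 10 mM galactose in place of glucose. All 3 media held 1 mM sodium pyruvate, 10% fetal bovine serum and 1% penicillin and streptomycin. The 12 RNA libraries were split evenly, 4 to a group. The labels do not say whether the 4 came from separate cultures, so p-values may measure technical spread alone. The design text of the series describes other cells, single muscle stem cells, and the labels of the samples were followed.

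Glucose enters cells through transporters of the GLUT family and is trapped by hexokinase as glucose 6-phosphate. Glycolysis then splits it into trioses and yields pyruvate. Lactate dehydrogenase turns pyruvate into lactate, which leaves through monocarboxylate transporters. Phosphofructokinase-1 is the main control point, and its activator fructose 2,6-bisphosphate is made and degraded by the PFKFB enzymes. Galactose joins the pathway at glucose 6-phosphate after conversion by the Leloir enzymes, and so bypasses hexokinase. Many of the steps have several isoform genes, some of them typical of adult muscle.

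Each group has 1 FPKM value per locus (fragments scaled to transcript length and to the mapped fragments of a library), pooled over its libraries by the authors, and each pair of groups has the authors' test. Without values per library there is no SD or n, and the depth is not known. A gene was called higher or lower where the authors' q was below 0.05, and "rose" and "fell" are used for such genes alone. The lowest q per the authors' deposited table, 0.000239, was shared by all tests at the lowest p. The 3 comparisons share their groups and are not independent. Across all tested loci the median log2 fold change was 0.007, 0.006 and 0.010 for low against high glucose, galactose against high glucose and galactose against low glucose. All 10 myoblast markers found were listed at 1 FPKM or more in some group, and their summed level was 993, 669 and 569 FPKM in high glucose, low glucose and galactose per the authors' deposited table. Of the markers of other cell types, the 4 endothelial ones summed to at most 0.211 FPKM, and 4 of 5 blood cell markers were below 1 FPKM in all groups, while Cd68 shares its locus with Eif4a1. The 7 fibroblast markers summed to 54.7, 34.1 and 20.3 FPKM, nearly all of it Pdgfrb, which fell in both media, and 5 of them were below 1 FPKM in all groups. Adipocyte markers summed to 20.5, 21.4 and 20.9 FPKM, where Pparg rose and Cebpa fell in both media and 4 of 6 were below 1 FPKM in all groups. Osteoblast markers summed to 22.1, 24.5 and 19.0 FPKM, mostly Runx2, which fell in galactose, and neural markers to 81.2, 97.5 and 95.1 FPKM, nearly all Tubb3, which rose in both media. The part of these markers in the results below was not tested.

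Some members are read from loci that cannot be assigned to them cleanly. Gapdh, usually among the most abundant transcripts of a cell, was listed at 0.924, 0.825 and 0.949 FPKM in high glucose, low glucose and galactose per the authors' deposited table. Over the 10 enzyme steps from Gpi1 to lactate dehydrogenase, Gapdh included and the PFKFB regulators left out, the median was 239, 243 and 261 FPKM. Among these 10 Gapdh alone was below that median divided by 10 in every group. The phosphoglycerate mutase step, Bpgm included, was below this limit in galactose (25.0 against 26.1 FPKM). Pgam1 by itself, at 16.1, 17.4 and 15.4 FPKM, was below the limit of 23.9, 24.3 and 26.1 FPKM in every group. In GENCODE M21, 143 pseudogenes matched the Gapdh coding sequence at 90% identity or more over at least 50% of its length, against 8 for Ldha, the next highest, and none for 22 of the 32 members. The 7 of these Gapdh pseudogenes that have a locus of their own summed to 3.18, 3.37 and 3.45 FPKM per the authors' deposited table. The part of the copies in the low value was not tested, and nothing is read from the Gapdh level. Eno1 had 5 such pseudogenes, Pkm 4, Pgam1 3, and Pgk1 and Aldoa 2 each. The closest copies of Pgam1 and Pgk1 were identical over the matched stretch, and their part in those levels was not tested. Tpi1 shares its locus with Usp5, and Eno3 with Rnf167. The Bsg locus spans 672333 bases and 45 RefSeq coding genes, against a gene length of 7622 bases. The loci of Pfkm, Pfkfb1, Aldoa, Tpi1 and Pgam2 were also over 2 times as long as the RefSeq gene. Pfkm, Pfkp, Pfkfb1, Pfkfb2, Tpi1 and Pgam2 overlap loci of other genes with at least 1 FPKM. Senp1, Pitrm1, Apex2, Yod1, Cdca3 and Dbnl are among those genes, and the labels do not say that strand was recorded.

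Promoter sequence is shown for 5 members at the ends of the pathway: the entry genes Slc2a1 and Hk2, and the exit genes Ldha, Slc16a1 and Slc16a3. Each is the 250 bases before a RefSeq transcription start (GRCm38.p6, the same assembly as mm10), 5′ to 3′ on the gene's strand. Capitals mark the letters ACGTG on either strand, the core that hypoxia-inducible factors bind, which is also part of CACGTG, the palindrome bound by MYC. The windows are chr4:119108495-119108744 for Slc2a1 (plus strand), chr6:82774455-82774704 for Hk2 (minus strand), chr7:46845554-46845803 for the upstream of 2 Ldha starts (plus strand), chr3:104638414-104638663 for Slc16a1 (plus strand) and chr11:120948817-120949066 for Slc16a3 (plus strand). The RefSeq spans of Ldha and Slc16a3 begin further upstream, at 46842274 and 120948484, so these windows lie inside them.
Slc2a1: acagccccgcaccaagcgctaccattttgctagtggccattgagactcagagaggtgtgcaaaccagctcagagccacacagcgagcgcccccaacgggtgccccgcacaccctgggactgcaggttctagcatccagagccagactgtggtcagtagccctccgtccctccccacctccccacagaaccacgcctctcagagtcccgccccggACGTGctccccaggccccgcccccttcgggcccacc
Hk2: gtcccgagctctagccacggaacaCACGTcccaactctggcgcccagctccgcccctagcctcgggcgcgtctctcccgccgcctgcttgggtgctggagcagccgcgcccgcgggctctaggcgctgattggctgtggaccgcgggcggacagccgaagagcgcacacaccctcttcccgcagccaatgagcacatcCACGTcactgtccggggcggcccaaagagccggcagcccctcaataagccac
Ldha: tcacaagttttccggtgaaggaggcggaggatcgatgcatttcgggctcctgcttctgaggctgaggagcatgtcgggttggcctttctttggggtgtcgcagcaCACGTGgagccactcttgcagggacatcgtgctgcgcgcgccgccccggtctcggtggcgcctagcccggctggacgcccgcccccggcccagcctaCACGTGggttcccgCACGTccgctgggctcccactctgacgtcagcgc
Slc16a1: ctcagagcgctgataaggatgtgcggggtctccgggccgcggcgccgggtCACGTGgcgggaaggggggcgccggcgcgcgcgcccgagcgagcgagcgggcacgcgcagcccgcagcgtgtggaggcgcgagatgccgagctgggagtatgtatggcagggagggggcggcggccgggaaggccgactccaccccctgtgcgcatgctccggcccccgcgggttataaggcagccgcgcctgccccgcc
Slc16a3: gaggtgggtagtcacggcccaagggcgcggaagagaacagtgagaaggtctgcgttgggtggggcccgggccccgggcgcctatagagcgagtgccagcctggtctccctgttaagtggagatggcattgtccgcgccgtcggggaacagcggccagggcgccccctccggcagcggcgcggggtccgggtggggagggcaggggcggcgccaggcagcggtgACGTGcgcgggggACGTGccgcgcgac
The Ldha window shown holds CACGTG 2 times and a further ACGTG, whereas the window of the other Ldha start (chr7:46846832-46847081) holds neither. The Slc16a1 window holds CACGTG once. Those of Hk2 and Slc16a3 hold ACGTG 2 times each without the palindrome, and that of Slc2a1 holds it once, 36 bases before the start. Of the other transporter, hexokinase and lactate dehydrogenase genes with a promoter, Slc2a8, Slc2a10, Hk1 and Ldhb, none held ACGTG in any window. RefSeq promoters were found for 29 of the 32 members, 46 windows in all. Of these windows 16 held ACGTG (34.8%), against 16.6% of 32851 windows of all genes, and 5 held CACGTG (10.9%), against 6.02%. Windows of a gene can overlap and count a site more than once, as 2 of Aldoa do. By gene, 12 of the 29 members held ACGTG, and no share by gene over all genes was computed. The letters GGGCGG, the box of the factor Sp1, were in 22 windows (47.8%), against 32.7% of all. A match describes the letters alone.

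**Figure D1:**
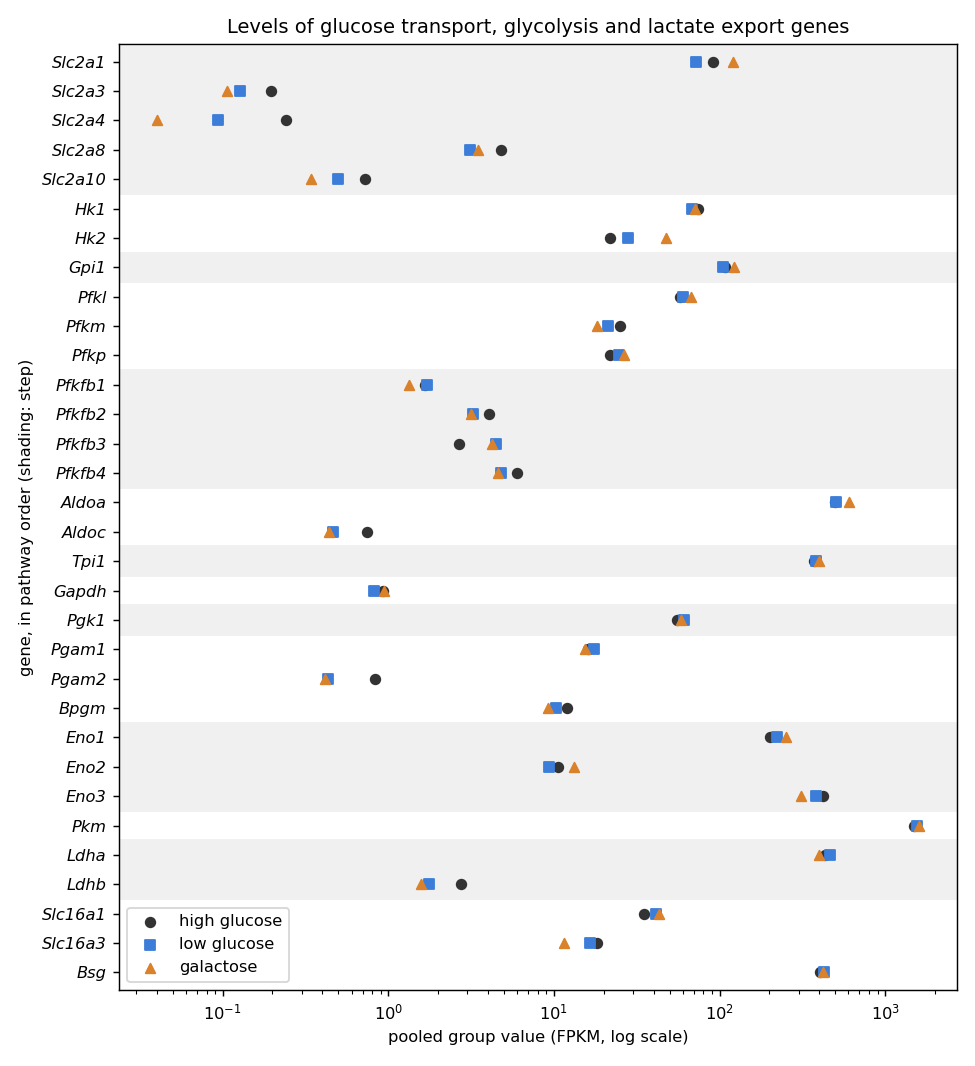
Pooled FPKM value (x axis, log scale) of the 32 members (y axis, in pathway order, shading by step) in high glucose (circles), low glucose (squares) and galactose (triangles), from the authors' deposited table. Levels run from 0.0403 FPKM for Slc2a4 in galactose to 1608 FPKM for Pkm in galactose, and for most abundant members the 3 symbols nearly coincide.

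Levels differed far more between members than between media. Pkm, which encodes pyruvate kinase, was the most abundant, at 1494, 1566 and 1608 FPKM in high glucose, low glucose and galactose per the authors' deposited table, and ranked 15, 14 and 20 among all loci. Aldoa, Tpi1, Eno1, Eno3, Ldha, Bsg and Gpi1 also had at least 100 FPKM in every group. None of these 8 was called with a change above 1.5-fold in any comparison. The other end held 6 members, which stayed below 1 FPKM in all groups of the authors' deposited table: the transporters Slc2a3, Slc2a4 and Slc2a10, the isoforms Aldoc and Pgam2, and Gapdh. Slc2a3 and Slc2a4 were marked as not tested by the authors, which leaves 30 tested members in each comparison. Over all 32, the members made up 0.802%, 0.773% and 0.751% of the summed FPKM of the authors' deposited table. Their own sum was 4396, 4504 and 4638 FPKM, while the sum of all loci was 548145, 582498 and 617537 FPKM.

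In low glucose, 3 of 30 tested members rose (10.0%) and 8 fell (26.7%), against 18.3% and 18.2% of all tested loci. In galactose against high glucose, 10 rose and 10 fell (33.3% each), against 26.5% and 24.8%. Between galactose and low glucose, 7 were higher in galactose (23.3%) and 4 lower (13.3%), against 17.4% and 16.0%. The median log2 fold change of tested members was -0.08, -0.01 and -0.03, and each turned positive (0.02, 0.07 and 0.01) when members under 1 FPKM in both groups were left out. Changes were small: Hk2 and Slc2a10 alone reached 2-fold among called members, both in galactose against high glucose. Of the 26 members with at least 1 FPKM in some group, 8 stood in rising order from high glucose over low glucose to galactose and 7 in falling order. Among all loci at that level the shares were 31.4% and 26.0%, so the members' counts are near the background.

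**Figure D2:**
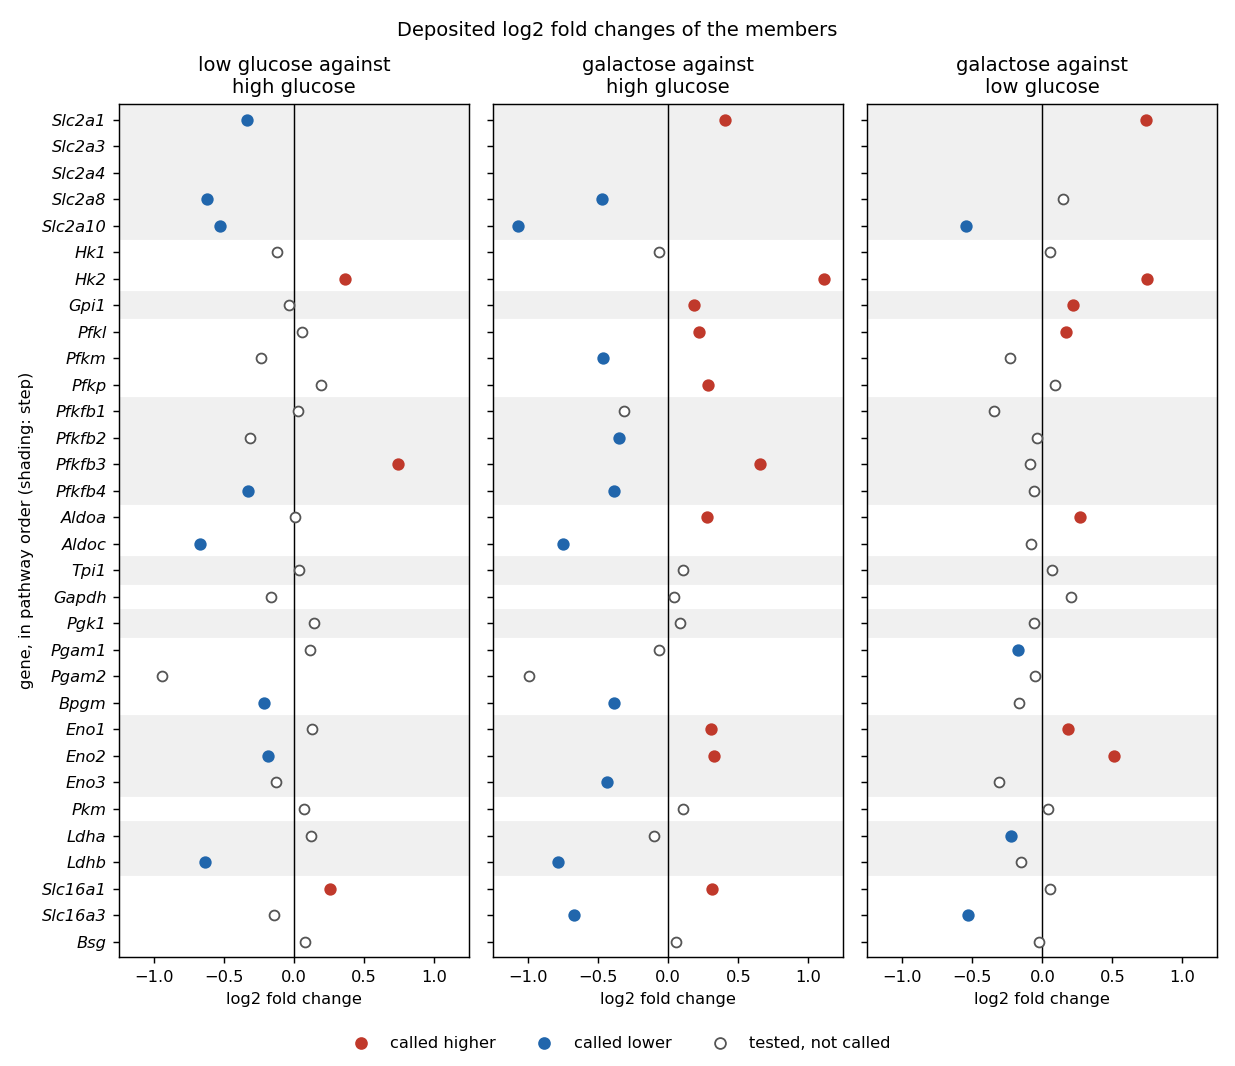
Log2 fold change, taken from the authors' deposited table (x axis), of each tested member (y axis, in pathway order, shading by step) in the 3 comparisons, red where called higher, blue where called lower and open where not called. Hk2 lies right of 0 in all 3 panels (0.36, 1.11 and 0.74), and Slc2a1 changes side between the first panel (-0.34) and the other two (0.40 and 0.74).

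Glucose transporters did not move together. Slc2a1 encodes GLUT1, the carrier of basal glucose uptake, and supplied 93.9%, 94.9% and 96.8% of the summed FPKM of the 5 transporters. It was listed at 91.2, 72.1 and 121 FPKM per the authors' deposited table, so low glucose was the lowest group and galactose the highest. All 3 differences were called at q = 0.000239, with log2 fold changes of -0.34, 0.40 and 0.74 per the authors' deposited table. Slc2a8, the gene of the intracellular transporter GLUT8, was at 4.80, 3.12 and 3.46 FPKM per the authors' deposited table. It fell in both media against high glucose (log2 fold changes -0.62 and -0.47, q = 0.000239 for both), and the last 2 groups were not called different (q = 0.241). Slc2a10, which encodes GLUT10, was lower still, at 0.720, 0.498 and 0.342 FPKM per the authors' deposited table. Its falls were called in all 3 comparisons (q = 0.00143, 0.000239 and 0.00954), although every value was below 1 FPKM. The insulin-responsive transporter of adult muscle, GLUT4, is encoded by Slc2a4, which was at 0.240, 0.0932 and 0.0403 FPKM per the authors' deposited table without a test. Slc2a3, the GLUT3 gene, was at 0.197, 0.127 and 0.106 FPKM there, also untested.

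Hexokinase traps glucose in the cell, and its isoform genes behaved differently. Hk1, the constitutive form, was at 74.5, 68.4 and 71.1 FPKM in high glucose, low glucose and galactose per the authors' deposited table and was called in no comparison (q = 0.117, 0.432 and 0.541). Hk2, the inducible form of muscle, was at 21.9, 28.2 and 47.3 FPKM per the authors' deposited table, and all 3 differences were called at q = 0.000239. It rose 1.29-fold in low glucose and 2.16-fold in galactose against high glucose. The ratio of Hk2 to Hk1 was 0.294, 0.412 and 0.665 in the same order of media. Summed over both genes, hexokinase was at 96.5, 96.6 and 118 FPKM, so the low glucose total stayed near that of high glucose while Hk2 made up 29.2% of it instead of 22.7%. The isoform ratio itself was not tested, since no error of it can be had. Gpi1, the isomerase of the next step, where galactose carbon has already entered, was at 108, 105 and 122 FPKM per the authors' deposited table. It rose in galactose against both other groups (log2 fold changes 0.18 and 0.22, q = 0.0196 and 0.00447).

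The phosphofructokinase-1 genes encode subunits that form mixed tetramers, named after liver, muscle and platelet. Pfkl was the most abundant, at 57.8, 59.9 and 67.3 FPKM per the authors' deposited table, and rose in galactose against high glucose (log2 fold change 0.22, q = 0.00266) and against low glucose (0.17, q = 0.031). Pfkp was at 21.8, 24.8 and 26.5 FPKM per the authors' deposited table and rose in galactose against high glucose (0.28, q = 0.0307). The muscle form Pfkm went the other way, at 25.1, 21.3 and 18.2 FPKM, with a fall in galactose against high glucose (-0.47, q = 0.000239) per the authors' deposited table. Its low glucose value lay just outside the threshold (q = 0.0516). Pfkm thus made up 24.0%, 20.1% and 16.2% of the summed subunit FPKM, whose total was 105, 106 and 112. Pitrm1, which overlaps Pfkp, also rose in galactose against high glucose, with a log2 fold change of 0.64, and Senp1, which overlaps Pfkm, fell with -0.34 per the authors' deposited table. The part of these neighbours in the Pfkp and Pfkm values was not tested.

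The PFKFB genes set the level of fructose 2,6-bisphosphate. Pfkfb3, the isoform with the strongest bias towards making it, was at 2.69, 4.50 and 4.23 FPKM per the authors' deposited table. It rose 1.67-fold in low glucose and 1.57-fold in galactose against high glucose (q = 0.000239 for both), and these media were not called different (q = 0.387). Pfkfb4 was at 6.0002, 4.77 and 4.58 FPKM per the authors' deposited table and fell in both media (log2 fold changes -0.33 and -0.39, q = 0.000239 for both). Pfkfb2 was at 4.03, 3.23 and 3.15 FPKM per the authors' deposited table and fell in galactose against high glucose (-0.35, q = 0.023), with q = 0.0566 in low glucose. Pfkfb1, at 1.67, 1.70 and 1.34 FPKM, was not called (q = 0.945, 0.365 and 0.298 per the authors' deposited table). The sum of the 4 genes was 14.4, 14.2 and 13.3 FPKM, and the share of Pfkfb3 in it was 18.7%, 31.7% and 31.8%.

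**Figure D3:**
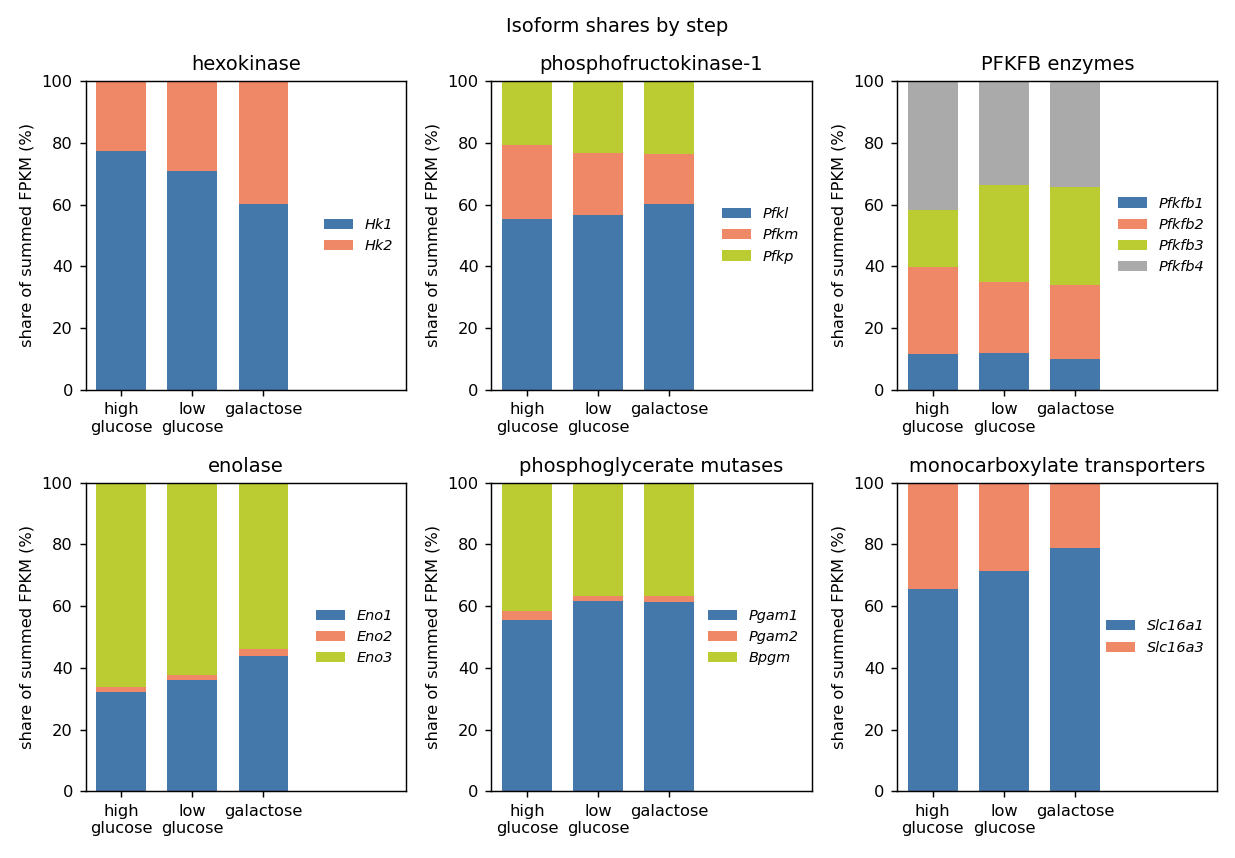
Share of each isoform gene in the summed FPKM of its step (y axis, percent, stacked to 100) in the 3 media (x axis), computed from the authors' deposited table, with no error available. Hk2 widens from 22.7% to 39.9% of hexokinase, Pfkfb3 from 18.7% to 31.8% of the PFKFB genes, Eno3 narrows from 66.3% to 53.9% of enolase, and Slc16a3 narrows from 34.5% to 21.0% of the monocarboxylate transporter pair.

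The later steps each had their own pattern. Aldoa, the main aldolase of muscle, was at 501, 503 and 605 FPKM per the authors' deposited table. It rose in galactose against high and low glucose by the same log2 fold change of 0.27 (q = 0.000456 and 0.000239). Aldoc, the aldolase of brain, was at 0.744, 0.467 and 0.442 FPKM and fell in both media against high glucose (-0.67 and -0.75, q = 0.00587 and 0.00161 per the authors' deposited table). Triosephosphate isomerase, read from the combined locus of Tpi1, was at 371, 380 and 400 FPKM (q = 0.759, 0.264 and 0.477 per the authors' deposited table). Pgk1, whose enzyme makes the first ATP of the pathway, was at 55.3, 61.1 and 58.7 FPKM (q = 0.0893, 0.344 and 0.563 per the authors' deposited table). Neither gene was called. Gapdh was not called either (q = 0.553, 0.903 and 0.45), at the low values given above.

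Phosphoglycerate mutase genes were low for the pathway. Pgam1, the general form, was at 16.1, 17.4 and 15.4 FPKM per the authors' deposited table, and the fall from low glucose to galactose was called (log2 fold change -0.18, q = 0.0437). That call ended when q was adjusted within the comparison alone. GENCODE M21 holds 3 pseudogenes of Pgam1, the closest identical over the matched stretch. Bpgm, which makes 2,3-bisphosphoglycerate and has a weak mutase activity, was at 12.05, 10.4 and 9.22 FPKM per the authors' deposited table. It fell in both media against high glucose (-0.22 and -0.39, q = 0.0147 and 0.000239). The muscle form Pgam2 was listed at 0.830, 0.432 and 0.416 FPKM, and its log2 fold changes of -0.94 and -0.996 against high glucose were not called (q = 0.585 and 0.593 per the authors' deposited table).

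Enolase genes moved in different directions in galactose. Eno1, the general form, was at 203, 221 and 251 FPKM per the authors' deposited table and rose in galactose against high glucose (log2 fold change 0.31, q = 0.000239) and low glucose (0.18, q = 0.0179). Eno2, the neuronal form, was at 10.6, 9.34 and 13.3 FPKM, lowest in low glucose and highest in galactose, and all 3 differences were called (q = 0.0325, 0.000239 and 0.000239 per the authors' deposited table). It shares this order with Slc2a1. Gpi1 stood in the same order, with low against high glucose not called (q = 0.719 per the authors' deposited table), as did Gapdh without any call. The muscle form Eno3 was at 419, 383 and 309 FPKM in its combined locus and fell in galactose against high glucose (-0.44, q = 0.00968 per the authors' deposited table). The ratio of Eno3 to Eno1 was 2.07, 1.73 and 1.23. Since Rnf167 is counted in the same locus, and Pfn1, at 2473 FPKM in high glucose, overlaps it, the level of Eno3 itself is uncertain.

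Among genes typical of muscle there was no common direction in galactose against high glucose: Hk2 and Aldoa rose, Pfkm and Eno3 fell, Pgam2 was not called and Slc2a4 was not tested. The loci of Aldoa, Pfkm, Eno3 and Pgam2 are among those that cannot be assigned cleanly. The 17 loci with markers of differentiated muscle summed to 78.4, 42.3 and 81.0 FPKM in high glucose, low glucose and galactose per the authors' deposited table. In that sum Acta1, which rose in galactose against high glucose, was at 16.1, 11.1 and 30.2 FPKM per the authors' deposited table. Tnnc1, at 16.8, 10.9 and 15.5 FPKM there, is read from a locus shared with Sema3g, and Myh2 from a locus of 5 Myh genes. Of 15 tested, 13 fell in low glucose, while in galactose against high glucose 6 fell and 1 rose, and in galactose against low glucose 12 of 14 were higher and 1 lower. Myoblast markers fell in 7 of 10 cases in low glucose and in 9 of 10 in galactose against high glucose, where 1 rose. In galactose against low glucose 8 of the 10 were lower and 2 higher. Of all tested loci, 18.2% fell in low glucose, and 24.8% fell and 26.5% rose in galactose against high glucose. Between galactose and low glucose, 17.4% were higher in galactose and 16.0% lower. The part of these markers in the enzyme values was not tested. In bulk RNA, fewer cells of a type and less RNA per cell cannot be told apart.

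Of the genes of the last reactions, Pkm and Ldha were abundant and changed little. Pkm was not called in any comparison (q = 0.525, 0.285 and 0.726 per the authors' deposited table), and its log2 fold changes were 0.07, 0.11 and 0.04. A further locus at the same coordinates also carries the symbol Pkm, at 19.9, 14.0 and 16.4 FPKM per the authors' deposited table, with no call. Ldha, the subunit that favours lactate formation, was at 430, 467 and 401 FPKM, and the difference between galactose and low glucose was the one called (log2 fold change -0.22, q = 0.00382 per the authors' deposited table). Against high glucose it was not called in either medium (q = 0.142 and 0.21). Ldhb, the subunit typical of heart, was at 2.74, 1.76 and 1.58 FPKM per the authors' deposited table and fell in both media against high glucose (-0.64 and -0.79, q = 0.000239 for both). Ldha exceeded Ldhb 157-fold, 266-fold and 253-fold.

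Lactate export genes changed in opposite directions. Slc16a1 encodes MCT1, a carrier that works in either direction, and was at 34.8, 41.6 and 43.2 FPKM per the authors' deposited table. It rose in both media against high glucose (log2 fold changes 0.26 and 0.31, q = 0.000239 for both), which were not called different from each other (q = 0.527). Slc16a3 encodes MCT4, the exporter of highly glycolytic cells and fibres, and was at 18.3, 16.6 and 11.5 FPKM per the authors' deposited table. It fell in galactose, 1.60-fold against high glucose and 1.44-fold against low glucose (q = 0.000239 for both), and was not called in low glucose (q = 0.0919). The ratio of Slc16a1 to Slc16a3 was 1.90, 2.51 and 3.76. Bsg, which encodes basigin, the partner that brings both carriers to the cell surface, was listed at 404, 425 and 419 FPKM in its long locus and was not called (q = 0.827, 0.883 and 0.951 per the authors' deposited table).

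Several members had called differences from high glucose in both other media. Hk2, Pfkfb3 and Slc16a1 were higher in both, and Slc2a8, Slc2a10, Pfkfb4, Aldoc, Bpgm and Ldhb were lower in both. Slc2a1 and Eno2 were lower in low glucose and higher in galactose. The 8 members called in no comparison were Hk1, Pfkfb1, Tpi1, Gapdh, Pgk1, Pgam2, Pkm and Bsg. No share of all loci was computed for these patterns over several comparisons. The lists are therefore given as a description alone. By position, 7 of the 32 members lie on chromosome 6 (mm10), with Eno2 (124759917 to 124769625), the Tpi1 locus (124807689 to 124833701) and Gapdh (125161852 to 125165583) close to each other. Hk2 lies on the same chromosome from 82725027 to 82774454. Slc2a1 lies on chromosome 4 from 119108632 to 119139870, Slc16a1 on chromosome 3 from 104638668 to 104658462, and Slc16a3 on chromosome 11 from 120948484 to 120959643.

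Other genes around the pathway were read from 7 lists, counting tested genes of at least 1 FPKM in either group of a comparison. The shares of all tested loci given above are the background of these counts. They were 18.3% higher and 18.2% lower in low glucose, and 26.5% higher and 24.8% lower in galactose against high glucose. Unlike the counts, these shares carry no limit of 1 FPKM. Of the other isozymes and regulators, 5 of 7 rose in galactose against high glucose and none fell, and in low glucose 3 of 7 rose and none fell. One of the 5, Gapdhs, is read from a locus shared with Tmem147 (q = 0.043 per the authors' deposited table), and Tigar was close to the threshold (q = 0.049). Pck2, the mitochondrial enzyme that makes phosphoenolpyruvate, led it at 25.999, 74.7 and 116 FPKM per the authors' deposited table. Adpgk, an ADP-dependent glucokinase, was at 23.7, 31.4 and 34.4 FPKM and rose in both media against high glucose (log2 fold changes 0.40 and 0.54 per the authors' deposited table), as did the phosphatase gene Pgam5 (0.31 and 0.34). Of the other sugar transporters, 3 reached the level, and in galactose against high glucose Slc45a3 rose (0.41) and Slc45a4 fell (-0.22 per the authors' deposited table). Slc50a1 was higher in galactose than in low glucose (0.23). Among 6 other monocarboxylate and pyruvate carriers, Slc16a6 rose in both media, from 0.484 to 1.19 and 1.57 FPKM, and Slc16a13 and Slc16a11 fell in galactose against high glucose (-0.36 and -0.27 per the authors' deposited table). The pyruvate carrier genes Mpc1 and Mpc2 and the MCT partner gene Emb were not called in any comparison.

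Shuttles that return the electrons of cytosolic NADH to mitochondria compete with lactate dehydrogenase for that NADH. Of 10 such genes, 4 rose and 3 fell in low glucose, and 3 rose and 5 fell in galactose against high glucose. Got1, the cytosolic aspartate aminotransferase, rose to 54.6 and 85.9 FPKM from 37.5 FPKM in high glucose per the authors' deposited table. Its partner Mdh1, the cytosolic malate dehydrogenase, fell from 67.4 to 57.2 and 51.6 FPKM (q = 0.00161 and 0.000239 against high glucose per the authors' deposited table). Gpd1l fell as well, from 12.7 to 10.5 and 7.92 FPKM per the authors' deposited table. Got2, the mitochondrial aminotransferase, rose in both media against high glucose (log2 fold changes 0.31 and 0.33), and the dicarboxylate carrier gene Slc25a10 fell in galactose (-0.44 per the authors' deposited table). Gpd2 and Slc25a13 rose in low glucose (0.24 and 0.28) and were lower in galactose than in low glucose (-0.37 and -0.33 per the authors' deposited table).

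**Figure D4:**
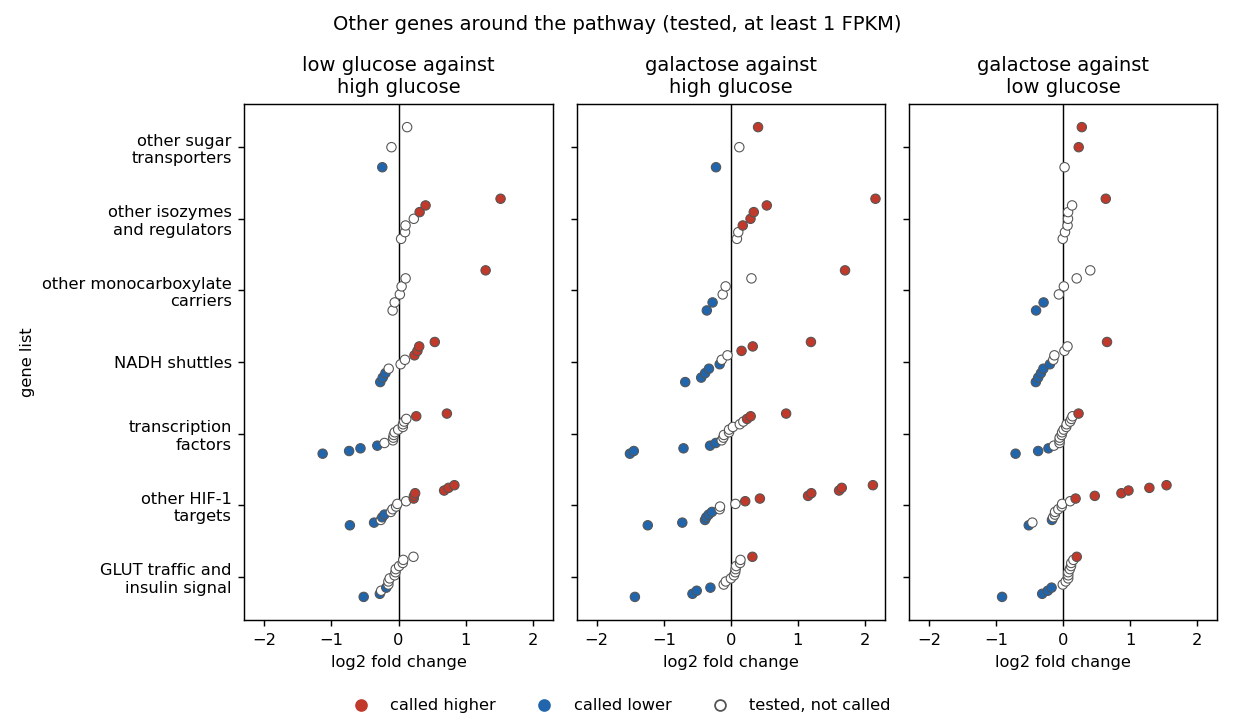
Log2 fold change, taken from the authors' deposited table (x axis), of tested genes with at least 1 FPKM in 7 lists of other pathway genes (y axis), in the 3 comparisons, red where called higher, blue where called lower and open where not called. Pck2 is the rightmost point of the isozyme list (1.52, 2.16 and 0.63), and the HIF-1 target list has points called on both sides of 0 in each panel.

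Of 16 tested genes of transcription factors known to act on glycolysis genes, and of their regulators, 2 rose and 4 fell in low glucose, 3 rose and 5 fell in galactose against high glucose, and 1 rose and 3 fell between low glucose and galactose, against 17.4% and 16.0% of all loci. One of these 3, Esrra, is read from a locus shared with Prdx5, at 310 FPKM in high glucose per the authors' deposited table. Myc was at 44.2, 72.8 and 78.2 FPKM and rose in both media against high glucose (log2 fold changes 0.72 and 0.82 per the authors' deposited table). Hif1a, the oxygen-regulated subunit, was at 29.7, 31.0 and 36.4 FPKM and rose in galactose against both (0.30 and 0.23 per the authors' deposited table). Mycl, a relative of Myc, fell from 4.32 to 1.97 and 1.52 FPKM, and Six4 from 9.55 to 6.45 and 5.85 FPKM per the authors' deposited table. Of 16 HIF-1 targets outside glycolysis, 6 rose and 4 fell in low glucose, and 7 rose and 6 fell in galactose against high glucose. Those that rose included Vegfa, at 84.9, 136 and 189 FPKM, the disulfide oxidase gene Ero1l, at 7.98, 14.2 and 34.6 FPKM, and Ndrg1, at 29.1, 31.5 and 91.7 FPKM, for which low glucose was not called different from high glucose (q = 0.198 per the authors' deposited table). Stc2, a secreted glycoprotein gene, rose from 7.47 to 12.5 and 22.9 FPKM, and Ddit4, an inhibitor of mTORC1 signalling, from 29.2 to 34.1 and 67.04 FPKM per the authors' deposited table. Narf had the largest fall of the list at that level, from 4.77 to 2.89 and 2.02 FPKM, and was called in all 3 comparisons per the authors' deposited table.

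Of 14 genes of insulin signalling and GLUT4 traffic, none rose and 3 fell in low glucose, and 1 rose and 4 fell in galactose against high glucose, so the falls were near the background. The 1 that rose, Sort1, is read from a locus shared with Psma5. Irs1, the insulin receptor substrate, fell from 27.3 to 19.0 and 10.1 FPKM, and Tbc1d4, which holds GLUT4 inside the cell, was at 1.33, 1.11 and 0.895 FPKM, a fall that was called in galactose against high glucose (log2 fold change -0.57, q = 0.000239 per the authors' deposited table). Lnpep, a peptidase of GLUT4 vesicles, fell from 10.2 to 8.38 and 7.14 FPKM per the authors' deposited table. Stx4a fell in low glucose (log2 fold change -0.18), and Irs2 was higher in galactose than in low glucose (0.20 per the authors' deposited table).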

How the data were processed

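RNA of 12 C2C12 libraries, 4 in each of 3 media, was grouped by the sample labels. TopHat2 2.0.10, Cufflinks 2.2.0, Cuffdiff (without a version) and the build mm10 are named, without their roles, per the submitters' processing notes. Libraries were made with a NEBNext Ultra RNA kit, per the labels' protocols. Settings and normalization between libraries are not given in the sources used here. The authors' deposited table holds 1 pooled FPKM value per group and locus, the log2 ratio of these values without a pseudocount (recomputed to within 1.08e-05 over members; over all loci with values above 0.1 FPKM the largest difference was 0.254), a test score, a p-value and a q-value. The authors' deposited score was not used. The deposited q-value was checked as the Benjamini-Hochberg adjustment over all 44006 tests with status OK. No test was rerun. Members, lists and rules were chosen with earlier results of these data known. All 32 members were named, and from each of 7 lists and each comparison up to 4 called genes with the largest change. One gene that this rule names is not reported here. Locus starts were raised by 1. Sequences are from RefSeq (GRCm38.p6), and gene spans from the same assembly overlapped all 32 loci. Pseudogenes were sought among 13607 GENCODE M21 pseudogene transcripts with BLAST 2.17.0. The calling rule was tested on simulated data. Alternatives were q below 0.01, a 2-fold minimum, 1 FPKM, adjustment within a comparison, re-centring, pseudocounts of 1 and 0.1 FPKM, summed loci and leaving out combined loci. Leaving out 11 members in doubtful loci was added after the data were seen. Python 3.11.15, pandas 2.3.3, numpy 2.4.6 and matplotlib 3.10.9 were used.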

Additional observations from a re-analysis of the deposited data

How the results depend on the processing

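Counts of members called higher and lower in the 3 comparisons stayed within 1.5 times under q below 0.01, 1 FPKM, adjustment within a comparison, re-centring, without combined loci and without the 11 members in doubtful loci. With a minimum of 2-fold they were 0 and 0 in low against high glucose, 1 and 1 in galactose against high glucose, and 0 and 0 in galactose against low glucose. With a minimum of 1 FPKM the median log2 fold changes turned from negative to 0.0169, 0.0691 and 0.00845, since the setting removes the 4 tested members with low values. Pseudocounts, re-centring, summed loci and leaving out combined loci kept the sign of the medians. Of 90 member tests, q below 0.01 ended 8 calls and adjustment within a comparison ended 1, that of Pgam1. No paired analysis was possible because the table holds 1 pooled value per group, which also prevented leaving out replicates. Depth is unknown, so members under 1 FPKM carry the least certain values.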
